A study of Mus musculus with 6 samples.

Results

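Spermatogonia are the mitotic germ cells at the base of the seminiferous tubule, and 32 genes known for roles in these cells are described here across the testes of 3 inbred mouse strains. The genes are those of a list of symbols. On the arrays, 29 of the 32 genes had at least 1 probe set annotated with that symbol alone, of 18193 genes with such a probe set in all. Each gene is given by its probe set of the highest mean intensity over the 6 arrays, with its other probe sets as a check.

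Testis RNA was taken from mice aged 8 weeks, 2 for each strain, and no treatment is named. The groups were C57BL/6, AKR/N and MRL/MpJ+/+, written MRL/MpJ from here on. Mouse 1 and mouse 2 stand for the labels' replicates 1 and 2. Intensities are linear units set by the authors' scaling, and array medians ran from 28.0 to 30.7 units. Differences are of log2(intensity + 16), with standard errors (SE) and p-values from limma, adjusted by the Benjamini-Hochberg method over 29692 tested probe sets and called under 0.05. The filter kept a probe set that passed its array's 40th percentile on 2 or more of the 6 arrays. Of the 29 genes, 26 passed this filter, 20 of them on all 6 arrays. Only 2 mice per strain limit the precision, and the spread was estimated over all 3 strains.

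A small pool of spermatogonial stem cells renews itself under GDNF from Sertoli cells, through factors such as ETV5, BCL6B, LHX1 and ID4, while ZBTB16, SALL4 and NANOS2 hold it undifferentiated. Progenitors marked by NEUROG3, SOHLH1, SOHLH2 and the retinoic acid receptor RARG then answer retinoic acid, switch on Kit and STRA8, divide with D-type cyclins, and enter meiosis. Most RNA of an adult testis comes from spermatocytes and spermatids. In whole testis, fewer cells of a type and less RNA per cell cannot be told apart, and several of these genes are also active outside spermatogonia.

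The 250 bases before the start sites of 3 of these genes are shown from RefSeq (GRCm38.p6). Stra8 is shown because retinoic acid turns it on, and Dazl and Utf1 because they were the genes whose brightest probe set differed between strains. Capitals mark each AGGTCA, the core motif of retinoic acid receptors and other nuclear receptors, and each GGGCGG, the GC box read by SP1, searched on both strands. They are written 5′ to 3′ on the gene's own strand, and the sequence is that of the C57BL/6J reference.
Stra8 (chr6:34920698-34920947, plus strand): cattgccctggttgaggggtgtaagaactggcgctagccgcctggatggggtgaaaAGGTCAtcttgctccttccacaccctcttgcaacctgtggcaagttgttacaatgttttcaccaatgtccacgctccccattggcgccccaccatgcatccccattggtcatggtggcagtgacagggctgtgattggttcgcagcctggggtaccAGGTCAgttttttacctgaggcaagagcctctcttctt
Dazl (chr17:50293621-50293870, minus strand): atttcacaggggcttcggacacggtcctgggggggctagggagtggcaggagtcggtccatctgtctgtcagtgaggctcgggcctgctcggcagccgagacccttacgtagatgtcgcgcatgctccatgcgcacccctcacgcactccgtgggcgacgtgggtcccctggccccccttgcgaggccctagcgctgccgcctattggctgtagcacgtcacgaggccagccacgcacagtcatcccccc
Utf1 (chr7:139943606-139943855, plus strand): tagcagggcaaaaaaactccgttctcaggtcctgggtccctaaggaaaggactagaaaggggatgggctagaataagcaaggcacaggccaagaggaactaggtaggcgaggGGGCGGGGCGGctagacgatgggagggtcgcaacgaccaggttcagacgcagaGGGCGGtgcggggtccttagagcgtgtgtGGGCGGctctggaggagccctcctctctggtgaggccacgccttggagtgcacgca

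The Stra8 window held AGGTCA at -194 to -189 and at -38 to -33, counted from the base before the start site as -1. GGGCGG stood in the Utf1 window at -138 to -133, overlapping the next at -133 to -128, and again at -85 to -80 and -56 to -51. In the Dazl window neither motif was found, and it held 20 CG dinucleotides against 14 for Utf1 and 5 for Stra8. Over 32851 windows of the same length, 14% held AGGTCA and 32.7% held GGGCGG, with a median of 6 CG dinucleotides. Promoter entries existed for 20 of the 32 genes, in 24 windows, of which 4 (16.7%) held AGGTCA and 12 (50%) held GGGCGG. These 24 windows had a median of 14.5 CG dinucleotides, more than the median over all windows. The genes with AGGTCA were Dnmt3a, Rarg, Sohlh1 and Stra8. Such matches describe the letters of the reference and were not tied to any strain's signal.

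By their brightest probe sets, 0 of 26 tested genes were called in MRL/MpJ against C57BL/6 by limma, and 0 of 26 in AKR/N against C57BL/6. Among all 14461 genes tested in the same way, 12.2% and 11.9% were called in these comparisons. At an unadjusted p under 0.05 the counts were 1 and 4 of 26, against 27.9% and 26.7% of all genes. Between MRL/MpJ and AKR/N, 2 of 26 were called, against 8.75% of all genes, with Dazl higher and Utf1 lower in MRL/MpJ. There, 6 of 26 had an unadjusted p under 0.05, against 24.5% of all genes, so both counts were near the share over all genes. The F test over the 3 strains called 1, Utf1, against 18.4% of all genes.

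**Figure D1:**
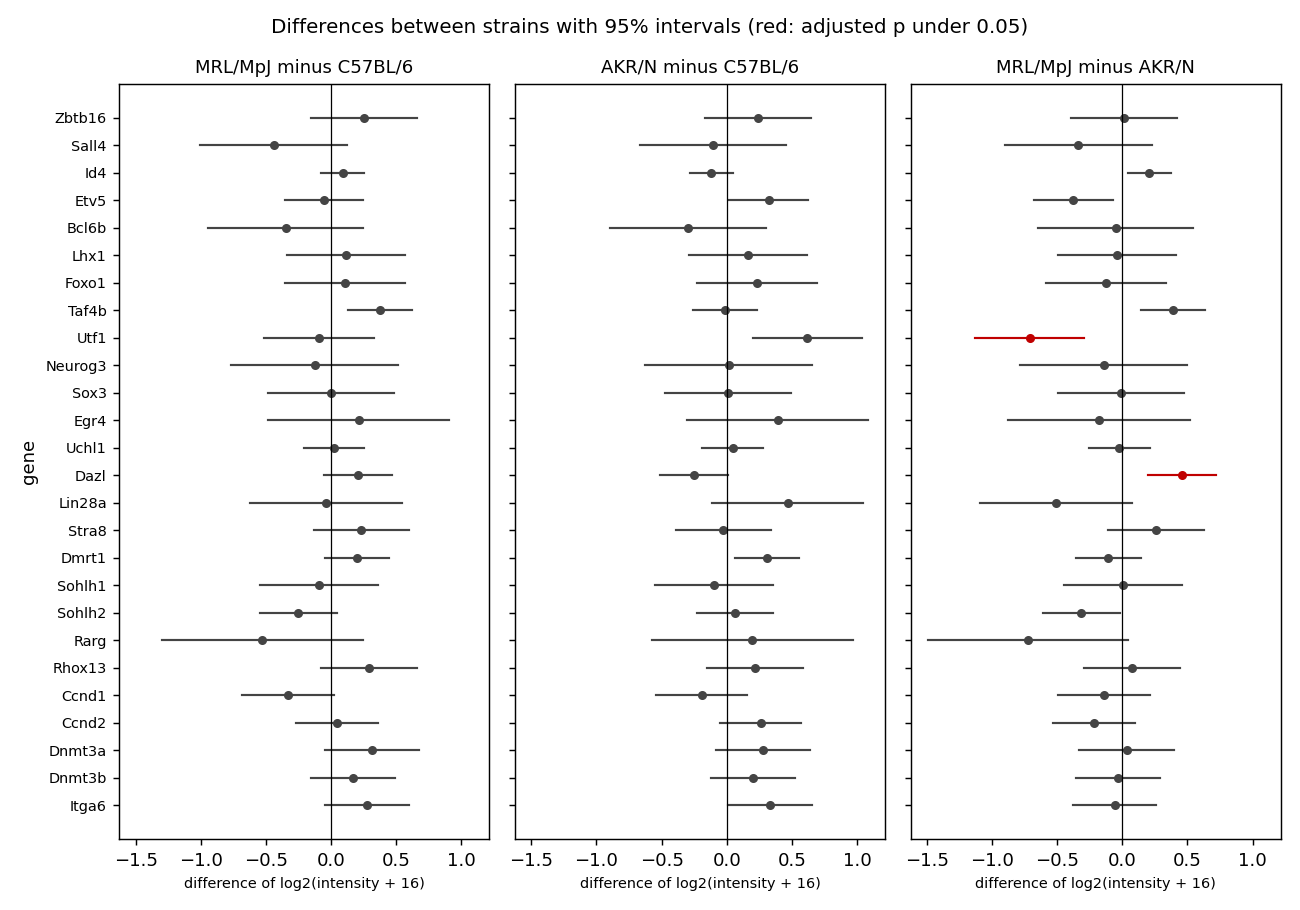
Differences of log2(intensity + 16) between strains for the 26 tested genes (x axis, with 1 row per gene) in the 3 comparisons. Points are limma estimates from 2 mice per strain, lines are 95% intervals, and red marks an adjusted p under 0.05, which only Dazl and Utf1 had, both between MRL/MpJ and AKR/N.

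The intervals show how far these arrays could see. The median SE of a gene's difference was 0.17, against 0.14 over all genes, and the median 95% interval reached 0.37 to either side. In MRL/MpJ against C57BL/6 the interval lay within a 2-fold change of intensity + 16 for 24 of 26 genes. In both other comparisons this held for 23 of 26. For dim genes such an interval allows a larger change of the intensity itself. The estimates ran from -0.53 to 0.37 in MRL/MpJ against C57BL/6, from -0.30 to 0.62 in AKR/N against C57BL/6, and from -0.72 to 0.46 between MRL/MpJ and AKR/N.

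In AKR/N the median gene stood slightly above C57BL/6. The median difference was 0.18, with 18 of 26 genes above 0, against 0.01 over all genes, of which 50.9% lay above 0. Lin28a was among the 18 but passed the filter on the AKR/N arrays alone, so its sign was not independent of the filter. The median was 0.08 without AKR/N mouse 2 and 0.10 without C57BL/6 mouse 1. It was 0.09 with a pseudocount of 64 and 0.10 as means of each gene's probe sets. The genes above 0 numbered 15 without AKR/N mouse 2, 14 without C57BL/6 mouse 1 and 21 without AKR/N mouse 1. MRL/MpJ had medians of 0.07 against C57BL/6 and -0.06 against AKR/N. The first was 0.04 without C57BL/6 mouse 1 and 0.10 without MRL/MpJ mouse 1, and the second was -0.13 without AKR/N mouse 1, -0.11 without MRL/MpJ mouse 1 and -0.02 without AKR/N mouse 2. The 3 comparisons share arrays. AKR/N had the highest strain mean for 15 of the 26 genes, Lin28a among them, and MRL/MpJ for 7, against 32% and 34.6% of all genes. The groups' arrays did not overlap for 13 of 26 genes in MRL/MpJ against C57BL/6, 12 in AKR/N against C57BL/6 and 10 between MRL/MpJ and AKR/N. Among all genes this held for 55.6%, 54.7% and 54.6%.

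**Figure D2:**
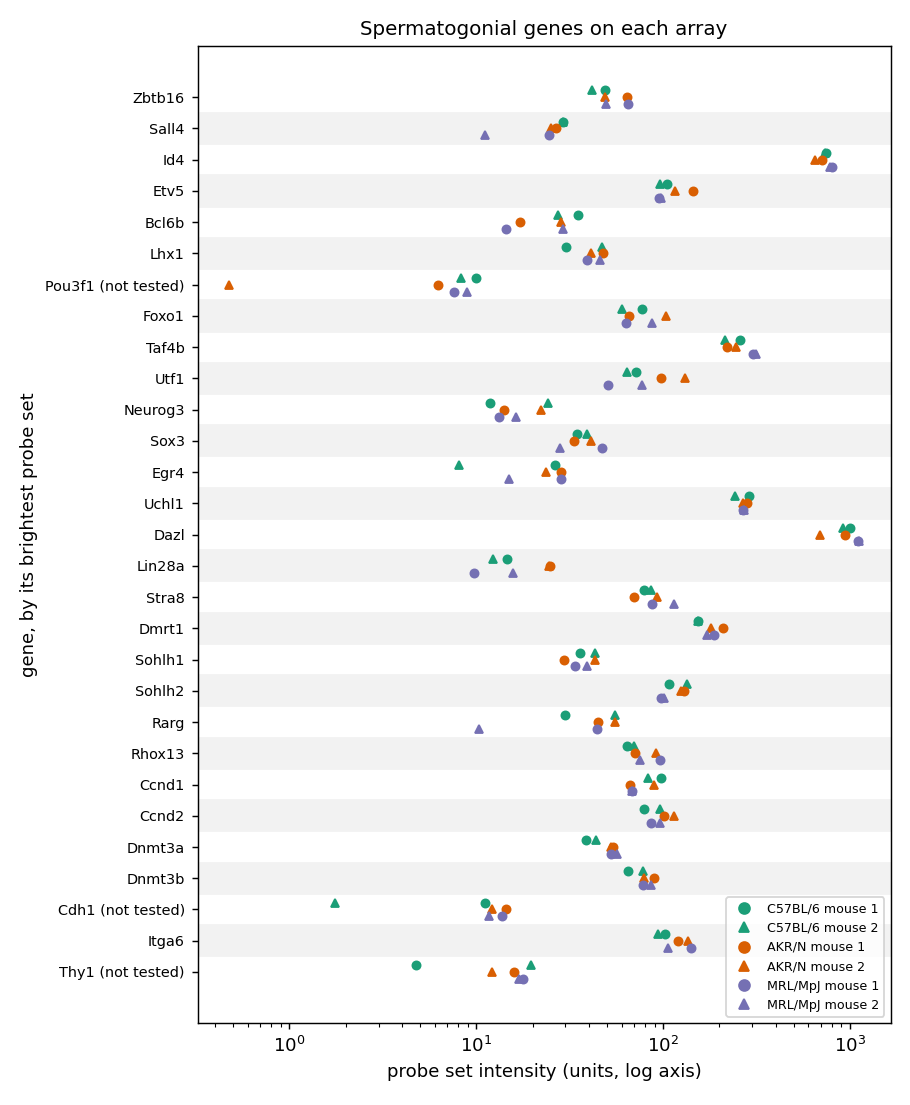
Intensity of the brightest probe set of the 29 measured genes (x axis, log scale, in the authors' units) on each of the 6 arrays, with colour for strain and shape for mouse. MRL/MpJ and C57BL/6 do not overlap for 13 of the 26 tested genes, against 55.6% of all genes. Pou3f1, Cdh1 and Thy1, which were not tested, lie below 20 units on every array.

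Among the factors of stem cells and undifferentiated spermatogonia, 13 of 14 genes were tested. Against C57BL/6 limma called 0 in MRL/MpJ and 0 in AKR/N, where 12.2% and 11.9% of all genes were called. At an unadjusted p under 0.05 there were 1 and 2, against 27.9% and 26.7% of all genes. Between MRL/MpJ and AKR/N 1, Utf1, was called, against 8.75% of all genes. Utf1, Taf4b, Id4 and Etv5 had an unadjusted p under 0.05 there, against 24.5% of all genes. Utf1 encodes a chromatin protein of pluripotent cells and early spermatogonia. Its intensity was 71.5 and 64.4 in C57BL/6, 96.9 and 130.7 in AKR/N, and 50.7 and 76.8 in MRL/MpJ. Both AKR/N mice lay above all other mice, while C57BL/6 and MRL/MpJ overlapped. The means were 68.0 ± 5.04, 113.8 ± 23.9 and 63.8 ± 18.4 units (SD, n = 2). MRL/MpJ was lower than AKR/N by 0.71 (-0.71, SE 0.19, limma adjusted p = 0.0497), and AKR/N differed from C57BL/6 by 0.62 (SE 0.19, adjusted p = 0.068).

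The call of Utf1 was at the edge of the threshold. It was lost without either C57BL/6 mouse (limma adjusted p = 0.0637 and 0.0626), without AKR/N mouse 1 (0.0714) or mouse 2 (0.336), and without MRL/MpJ mouse 1 (0.277). The difference was -0.52 without AKR/N mouse 2 and -0.47 without MRL/MpJ mouse 1. By the F test Utf1 had adjusted p = 0.0465, which became 0.0627 to 0.331 with any one array left out except MRL/MpJ mouse 2. Against C57BL/6, AKR/N passed the threshold with the replicate number as a block (0.0413), with only the arrays compared (0.0449) and without MRL/MpJ mouse 1 (0.0469). Both other Utf1 probe sets lay below the filter.

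Taf4b, a TFIID subunit of the germ line needed to keep the stem cell pool, had its highest values in MRL/MpJ. Its brightest probe set read 258 and 214 units in C57BL/6, 220.2 and 247 in AKR/N, and 305 and 315 in MRL/MpJ. Both MRL/MpJ mice lay above the other 4. The differences of 0.37 from C57BL/6 and 0.39 from AKR/N (SE 0.11 each) had limma adjusted p = 0.0599 and 0.0673. They were called with the stricter filter at the 60th percentile (adjusted p = 0.0444 and 0.0481), the first also without C57BL/6 mouse 1 (0.50, adjusted p = 0.0355), and the second without either C57BL/6 mouse (0.0434 and 0.0423). On a second probe set MRL/MpJ was higher than AKR/N. It read 142.8 and 158 against 94.7 and 111 units (0.49, SE 0.13, adjusted p = 0.0451), with C57BL/6 at 131 and 143. That call was lost without any one of the AKR/N or MRL/MpJ mice (adjusted p = 0.0933 to 0.249).

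Id4 encodes a helix-loop-helix inhibitor that marks stem cells, and is also made in Sertoli cells. Its brightest probe set read 748 and 736 units in C57BL/6, 711 and 654 in AKR/N, and 802 and 778 in MRL/MpJ. The 3 strains did not overlap, yet no difference was called (0.09 for MRL/MpJ and -0.12 for AKR/N against C57BL/6, 0.21 between them, SE 0.08, limma adjusted p = 0.522, 0.382 and 0.141). Of its 2 other probe sets, 1 gave the strains in the same order without overlap. It read 202 and 185 units in AKR/N, 216 and 219 in C57BL/6, and 260 and 245 in MRL/MpJ. No difference was called on it (0.36 between MRL/MpJ and AKR/N, limma adjusted p = 0.0576). The other was higher in MRL/MpJ than in C57BL/6, at 338 and 348 against 261 and 263 units (0.37, SE 0.09, adjusted p = 0.0231). On that probe set AKR/N lay between them, at 294 and 292 units, unlike on the brightest one. The call was lost without either mouse of the strains compared (adjusted p = 0.0683 to 0.132).

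Etv5, an ETS factor that GDNF turns on, read 105 and 95.9 units in C57BL/6, 144.8 and 116 in AKR/N, and 95.4 and 97.0 in MRL/MpJ. Both AKR/N mice were highest, but the difference between MRL/MpJ and AKR/N of -0.38 was not called (limma adjusted p = 0.144), nor was the 0.32 between AKR/N and C57BL/6 (0.181). Sertoli cells also make Etv5. The summed signal of 14 Sertoli cell markers was 9652 and 9789 units in AKR/N, 8193 and 8387 in C57BL/6, and 8843 and 8661 in MRL/MpJ, and its part in these values was not tested.

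Zbtb16, a zinc finger repressor of undifferentiated spermatogonia, read 48.6 and 41.9 units in C57BL/6. It was 63.96 and 49.1 in AKR/N and 65.1 and 49.6 in MRL/MpJ (0.24 and 0.25 against C57BL/6, limma adjusted p = 0.487 and 0.448). Both other strains lay above C57BL/6, by little, and each spread widely. Uchl1, a ubiquitin hydrolase of spermatogonia, varied little, from 242 to 289.7 units. Its differences were 0.02 and 0.05 against C57BL/6, with 95% intervals of -0.21 to 0.26 and -0.19 to 0.28.

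Foxo1, the transcription factor that moves to the nucleus as gonocytes become stem cells, ranged from 60.5 to 104 units, and Lhx1, a LIM homeobox target of GDNF, from 30.1 to 47.8. On these brightest probe sets both overlapped between all 3 strains. A second Foxo1 probe set read 86.4 and 86.5 units in AKR/N, 74.1 and 67.9 in C57BL/6, and 71.4 and 64.2 in MRL/MpJ. There AKR/N lay above both other strains, but neither difference was called (limma adjusted p = 0.346 against C57BL/6 and 0.278 against MRL/MpJ). The last tested Foxo1 probe set overlapped between all strains. Sox3, an X-linked factor of early progenitors, ranged from 28.2 to 47.1 units, and its differences ran from -0.0092 to 0.0115 over the 3 comparisons (SE 0.22). Sall4, a zinc finger partner of ZBTB16, read 24.6 and 11.1 units in MRL/MpJ, 28.9 and 29.0 in C57BL/6 and 26.7 and 24.98 in AKR/N. MRL/MpJ mouse 2 was the lowest, and the MRL/MpJ difference from C57BL/6 of -0.44 had limma adjusted p = 0.325. On the other tested Sall4 probe set that difference was 0.03, and C57BL/6 mouse 1 was lowest, at 7.93 units.

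Bcl6b, Egr4 and Neurog3 were dim, and passed the filter on 4, 4 and 2 of the 6 arrays. Bcl6b, a repressor that GDNF turns on, ranged from 14.4 to 35.1 units. Egr4, an early response factor, ranged from 8.13 to 28.3, and Neurog3, the helix-loop-helix factor of progenitors, from 11.9 to 24.3. Their largest difference was 0.39, for Egr4 in AKR/N against C57BL/6, with a 95% interval of -0.30 to 1.08, so a 2-fold change could not be told from none. Pou3f1, a POU factor that GDNF turns on, lay at 0.476 to 10.003 units and was not tested.

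Dazl, an RNA-binding protein that promotes translation from spermatogonia through meiosis, was lower in AKR/N than in MRL/MpJ. Its brightest probe set read 998 and 922 units in C57BL/6, 935.5 and 688 in AKR/N, and 1102 and 1118 in MRL/MpJ. Both MRL/MpJ mice lay above the rest, and the AKR/N mice differed from each other more than those of any other strain. The means were 960.1 ± 54.2, 811.8 ± 175 and 1110.1 ± 11.6 units (SD, n = 2). MRL/MpJ exceeded AKR/N by 0.46 (SE 0.12, limma adjusted p = 0.0432), and neither strain's difference from C57BL/6 was called (0.21 and -0.25, adjusted p = 0.32 and 0.226).

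The second Dazl probe set read 807 and 883 units in C57BL/6, 622 and 552 in AKR/N, and 701 and 864 in MRL/MpJ. Here both AKR/N mice were lowest, and AKR/N fell below C57BL/6 (-0.52, SE 0.11, limma adjusted p = 0.0114) and below MRL/MpJ (0.40 for MRL/MpJ minus AKR/N, adjusted p = 0.0472). As the mean of both, AKR/N was lower than C57BL/6 by 0.38 (-0.38, adjusted p = 0.0387). On the brightest probe set MRL/MpJ exceeded AKR/N by 0.24 without AKR/N mouse 2 (adjusted p = 0.266). Its call was also lost without either MRL/MpJ mouse (0.151 and 0.178) or either C57BL/6 mouse (0.0592 and 0.0587). Without AKR/N mouse 1, AKR/N was below C57BL/6 on it too (-0.47, adjusted p = 0.0221). On the second probe set, AKR/N against C57BL/6 lost its call without AKR/N mouse 2 (0.107) or C57BL/6 mouse 2 (0.0948). When arrays were left out one by one, its higher level in MRL/MpJ than in AKR/N was called only without MRL/MpJ mouse 1, and adjusted p reached 0.31 without MRL/MpJ mouse 2.

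Spermatocytes also contain Dazl. Of 16 spermatocyte markers, 5 were lower and 0 higher in AKR/N than in C57BL/6, and 7 were higher and 0 lower in MRL/MpJ than in AKR/N. In MRL/MpJ against C57BL/6, 1 was higher and 3 were lower, with a median of -0.03. The summed signal of the 16 was 30340 and 31230 units in C57BL/6, 28020 and 27370 in AKR/N, and 29260 and 30260 in MRL/MpJ. The part of spermatocytes in the Dazl difference was not tested. The number of spermatocyte markers called between MRL/MpJ and AKR/N was 2 without AKR/N mouse 2, 3 without MRL/MpJ mouse 2 and 0 without MRL/MpJ mouse 1. It was 4 with no filter and 0 with no variance trend.

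**Figure D3:**
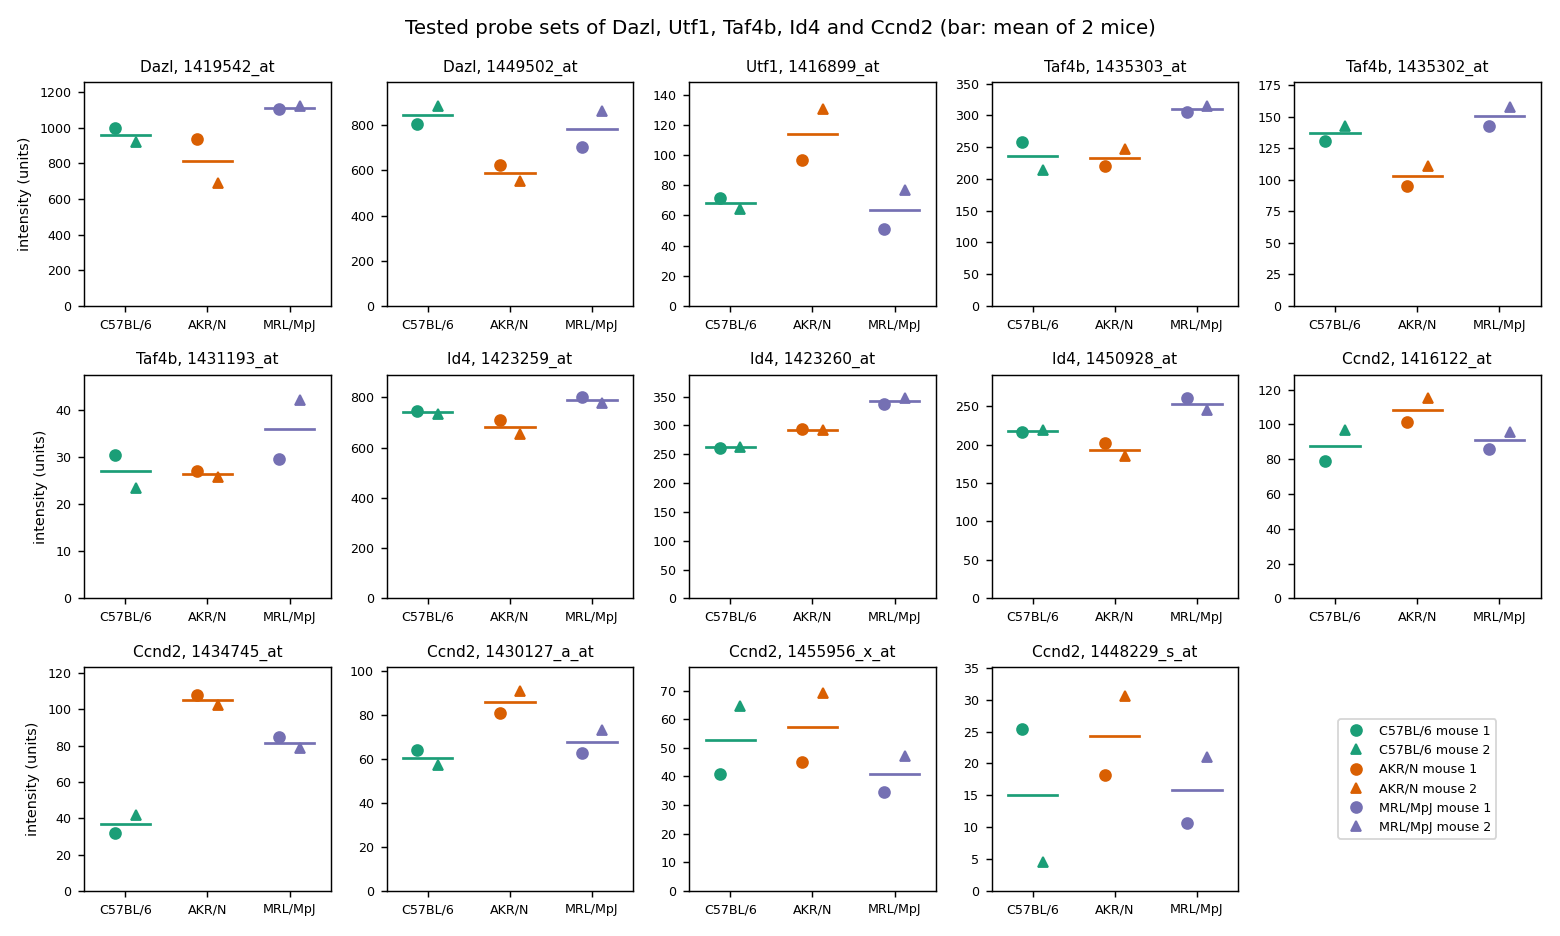
Intensity (y axis, from 0) of every tested probe set of Dazl, Utf1, Taf4b, Id4 and Ccnd2 in each strain, with 1 point per mouse and a bar at the mean of 2 mice. One Ccnd2 probe set stands at 31.6 and 41.7 units in C57BL/6 and above 78 units in all other mice, while the brightest Ccnd2 probe set overlaps between C57BL/6 and MRL/MpJ.

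Lin28a, which blocks maturation of let-7 microRNAs, was near the filter on its brightest probe set. It read 14.6 and 12.3 units in C57BL/6, 24.8 and 24.6 in AKR/N and 9.76 and 15.8 in MRL/MpJ. Only the AKR/N arrays passed the percentile, so this gene was tested because of the strain in which it was high. No difference was called (0.47 for AKR/N against C57BL/6, limma adjusted p = 0.319), and its other probe set was not tested. For Nanos2 and Nanos3, RNA-binding proteins of the stem cell pool and its progenitors, and for the homeobox gene Rhox10, no probe set bore the symbol alone, and they were not analysed here.

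Of 7 genes of differentiation and the retinoic acid response, 6 were tested and 0 were called in any comparison by limma. An unadjusted p under 0.05 was seen for 0 in MRL/MpJ and 1 in AKR/N against C57BL/6, and for 1 between MRL/MpJ and AKR/N. Over all genes 12.2%, 11.9% and 8.75% were called in these comparisons, and 27.9%, 26.7% and 24.5% had an unadjusted p under 0.05. Stra8, the retinoic acid target needed to begin meiosis, read 79.4 and 86.0 units in C57BL/6, 70.2 and 92.6 in AKR/N, and 87.2 and 113.9 in MRL/MpJ. The strains overlapped except for MRL/MpJ and C57BL/6, which differed by 0.23 (95% interval -0.13 to 0.60, adjusted p = 0.437). AKR/N differed from C57BL/6 by -0.03 (-0.39 to 0.34).

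Dmrt1, a sex-determining factor of Sertoli cells and spermatogonia that holds back meiosis, was steady within C57BL/6, at 154 and 154 units. Both other strains lay above it, at 209 and 181.5 units in AKR/N and 188 and 172 in MRL/MpJ. The differences were 0.31 and 0.20 (limma adjusted p = 0.118 and 0.307). Sohlh2 and Sohlh1 encode helix-loop-helix factors that start differentiation. Sohlh2 read 97.0 and 100.8 units in MRL/MpJ, below all other mice, which ranged from 108 to 135 (-0.25 against C57BL/6 and -0.31 against AKR/N, adjusted p = 0.282 and 0.211). Sohlh1 ranged from 29.6 to 43.4 units and overlapped between all strains.

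Rarg, the retinoic acid receptor of spermatogonia, varied widely between mice of a strain. It read 30.0 and 55.5 units in C57BL/6, 44.7 and 55.0 in AKR/N, and 44.1 and 10.3 in MRL/MpJ. MRL/MpJ mouse 2 was far below the rest, and the difference of -0.72 from AKR/N had an SE of 0.35 and limma adjusted p = 0.28. On the second tested Rarg probe set that difference was 0.03, and AKR/N mouse 1 was lowest, at 7.17 units. Rhox13, an X-linked homeobox gene of spermatogonia and early spermatocytes, read 63.7 and 70.2 units in C57BL/6, 70.4 and 91.4 in AKR/N, and 96.7 and 74.9 in MRL/MpJ. C57BL/6 was lowest, and no difference was called (0.22 and 0.29 against it, adjusted p = 0.485 and 0.327).

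Among the genes of retinoic acid supply, Aldh1a1 was called in all 3 comparisons. Aldh1a1, a retinaldehyde dehydrogenase of Sertoli and Leydig cells that makes retinoic acid, read 1313 and 1262 units in C57BL/6, 3534 and 4008 in AKR/N, and 2247 and 2343 in MRL/MpJ. It was higher by 1.54 in AKR/N and 0.83 in MRL/MpJ than in C57BL/6 (SE 0.07, limma adjusted p = 5.2e-07 and 4.67e-05). Dhrs4, a retinal and carbonyl reductase, was lower in both (-0.55 and -0.65, limma adjusted p = 0.0158 and 0.00683). The first of these was lost without C57BL/6 mouse 2 (0.0996) or AKR/N mouse 2 (0.138), and the second without C57BL/6 mouse 2 (0.0501) or MRL/MpJ mouse 1 (0.0671). Of 16 tested genes for retinoic acid supply, receptors and response, 1 rose and 2 fell in MRL/MpJ, and 1 rose and 1 fell in AKR/N. The medians were 0.12 and 0.05. Between MRL/MpJ and AKR/N, 2 of 16 were lower in MRL/MpJ, Aldh1a1 (-0.71, adjusted p = 0.000213, and 0.0576 with no variance trend) and Rec8. The count of 3 in MRL/MpJ against C57BL/6 was 1 without MRL/MpJ mouse 1. The count of 2 in AKR/N was 1 without C57BL/6 mouse 2 or AKR/N mouse 2, and the count of 2 between MRL/MpJ and AKR/N was 1 without AKR/N mouse 1 or MRL/MpJ mouse 1.

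Rec8, a meiotic cohesin subunit that retinoic acid also turns on, read 323 and 299.9 units in C57BL/6, 330.5 and 286 in AKR/N, and 189 and 219 in MRL/MpJ. It was lower in MRL/MpJ than in both other strains (-0.58 and -0.56, limma adjusted p = 0.0075 and 0.0123). Without MRL/MpJ mouse 1 these had adjusted p = 0.0718 and 0.101, and without AKR/N mouse 1 the second had 0.112. The Leydig cell markers had a summed signal of 3553 and 3422 units in C57BL/6, 5591 and 6092 in AKR/N, and 5663 and 5839 in MRL/MpJ. These sums were higher in both strains than in C57BL/6, like Aldh1a1, but overlapped between AKR/N and MRL/MpJ, where Aldh1a1 did not. The part of these cells and of Sertoli cells in the Aldh1a1 signal was not tested.

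**Figure D4:**
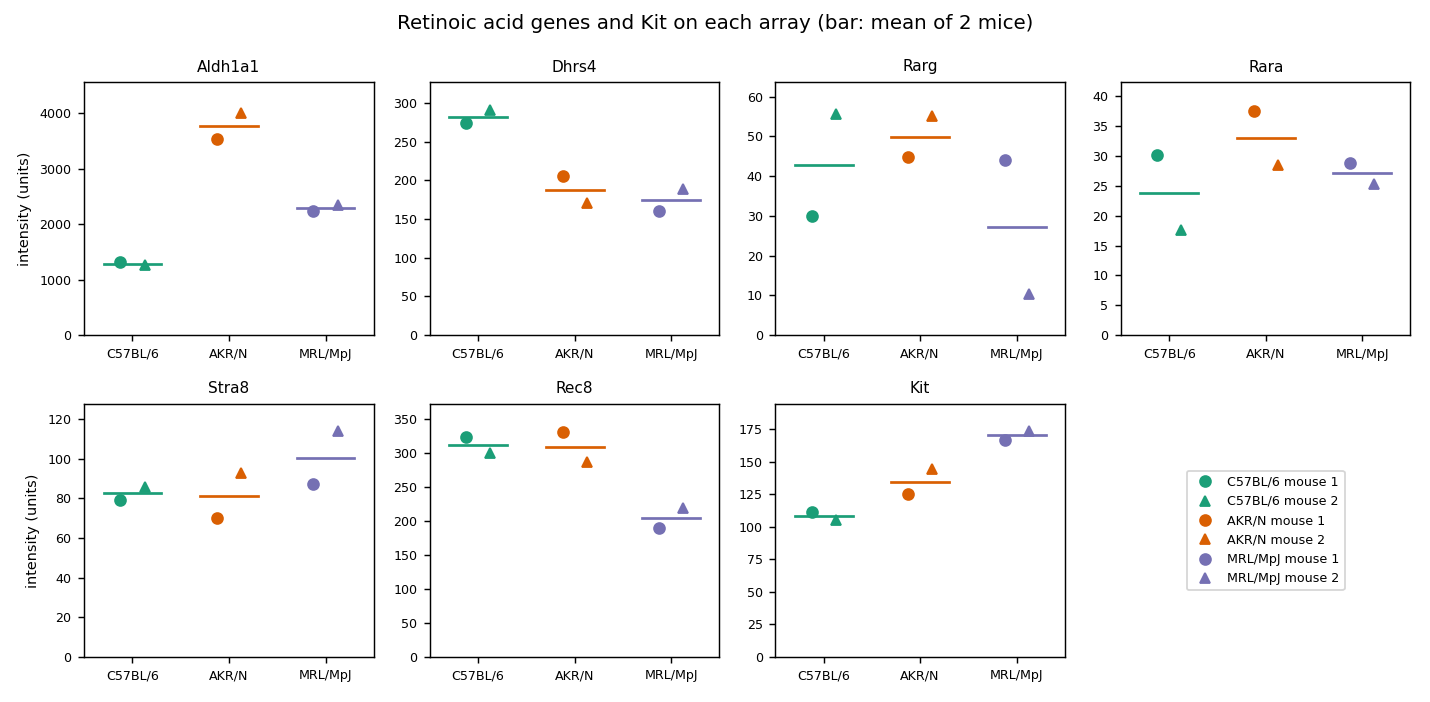
Intensity (y axis, from 0, in the authors' units) of retinoic acid genes and Kit in each strain, with 1 point per mouse and a bar at the mean of 2 mice. Aldh1a1 separates all 3 strains, from 1262 to 4008 units, while Stra8 lies between 70.2 and 113.9 units on the 6 arrays.

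Ccnd1 and Ccnd2 encode D-type cyclins, which carry dividing spermatogonia through G1. Neither was called by its brightest probe set. Ccnd2 read 79.2 and 96.6 units in C57BL/6, 101.2 and 115 in AKR/N, and 85.9 and 95.8 in MRL/MpJ (0.04 and 0.26 against C57BL/6, limma adjusted p = 0.892 and 0.306). One other Ccnd2 probe set was far lower in C57BL/6. It read 31.6 and 41.7 units there, 108 and 102 in AKR/N, and 84.5 and 78.6 in MRL/MpJ. On it AKR/N was higher by 1.21 and MRL/MpJ by 0.90 (SE 0.15, adjusted p = 0.000652 and 0.00426). Under the 15 other settings run on it, chosen after seeing the data, both calls were kept, with differences from 0.75 to 1.51 and from 0.53 to 1.14. By limma, 0 of the other 4 tested Ccnd2 probe sets were called in any comparison, with 1 at an unadjusted p under 0.05. All 5 tested Ccnd2 probe sets had a positive difference in AKR/N against C57BL/6 and a negative one between MRL/MpJ and AKR/N. In both of these comparisons they differed mainly in size and in calls. In MRL/MpJ against C57BL/6 the signs differed too. There the brightest was 0.04, 3 of its 4 other tested probe sets shared its sign, and 1 was -0.26. Which transcript a probe set reads, and whether the strains differ in sequence under its probes, could not be checked here for Ccnd2 or any other gene.

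Ccnd1 read 97.3 and 83.5 units in C57BL/6, 66.5 and 88.9 in AKR/N, and 68.6 and 68.3 in MRL/MpJ. The 2 MRL/MpJ mice lay below both C57BL/6 mice, with a difference of -0.33 (95% interval -0.68 to 0.02, limma adjusted p = 0.232). A second Ccnd1 probe set went the other way, at 68.6 and 55.3 units in MRL/MpJ against 41.1 and 42.9 in C57BL/6 (0.42, 95% interval 0.05 to 0.79, adjusted p = 0.154), and the last tested one was -0.53 (adjusted p = 0.264). Among 17 other tested cyclins, their kinases and inhibitors and related cell cycle genes, 4 fell and 0 rose in AKR/N against C57BL/6, and 2 fell and 0 rose in MRL/MpJ. Between MRL/MpJ and AKR/N, 1 was higher in MRL/MpJ, Mki67 (0.45, limma adjusted p = 0.0283). Pcna, the sliding clamp of DNA replication, read 1805 and 1848 units in AKR/N against 2629 and 2462 in C57BL/6 (-0.47, adjusted p = 0.00082). Mki67, a marker of cycling cells, read 160 and 142 against 208 and 219.7 units (-0.46, adjusted p = 0.0191). It had adjusted p = 0.145 without AKR/N mouse 2 and 0.1 without C57BL/6 mouse 2. The count of 4 in AKR/N was 1 without either of those mice, 2 without AKR/N mouse 1 and 2 under median centring. With no variance trend limma called 0 of the 17 in each comparison. The count of 2 in MRL/MpJ was 1 without either C57BL/6 mouse and 0 without either MRL/MpJ mouse, and Mki67 between MRL/MpJ and AKR/N was lost without any one of the 4 mice of these strains (adjusted p = 0.0684 to 0.203). Spermatocytes make several of these genes too, and 5 of their 16 markers were lower in AKR/N as given above, among them Ccna1, which is in both lists. The part of spermatocytes in these cell cycle values was not tested.

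Dnmt3a and Dnmt3b encode the methyltransferases that set new DNA methylation in germ cells. Dnmt3a read 38.5 and 43.5 units in C57BL/6, 53.8 and 52.4 in AKR/N, and 52.5 and 56.98 in MRL/MpJ. Both C57BL/6 mice were lowest, and the differences of 0.28 and 0.31 were not called (limma adjusted p = 0.341 and 0.277). On its 3 other tested probe sets the strains overlapped. There the differences from C57BL/6 were 0.19, 0.06 and 0.23 in AKR/N and 0.03, -0.22 and 0.16 in MRL/MpJ. Dnmt3b ran from 64.7 to 89.4 units and was also lowest in C57BL/6, by 0.20 and 0.17. Dnmt3l, the cofactor of both enzymes, rose in AKR/N, at 132 and 115 against 84.3 and 61.4 units in C57BL/6 (0.66, adjusted p = 0.0223). That call was lost without C57BL/6 mouse 2 (0.134) and without AKR/N mouse 1 or 2 (0.162 and 0.0719). Of 12 tested genes of the methylation machinery, 1 rose and 1 fell in AKR/N, 0 rose and 1 fell in MRL/MpJ. Between MRL/MpJ and AKR/N limma called 0, with 5 at an unadjusted p under 0.05, against 24.5% of all genes. The gene that fell in both was Mbd4, a glycosylase that repairs deaminated CG sites (-0.79 in MRL/MpJ and -0.70 in AKR/N, adjusted p = 0.0118 and 0.0206). Averaged over its probe sets, Mbd4 differed by 0.0162 and 0.142. The count of 2 in AKR/N was 0 without C57BL/6 mouse 2 or AKR/N mouse 2 and 1 without the other mouse of either strain, and the count of 1 in MRL/MpJ was 0 without C57BL/6 mouse 2 or MRL/MpJ mouse 2.

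The surface proteins used to sort spermatogonial stem cells were seen in part. Itga6, the laminin receptor subunit alpha 6, read 103 and 93.8 units in C57BL/6, 120.2 and 136 in AKR/N, and 140.2 and 106 in MRL/MpJ. C57BL/6 was lowest, with differences of 0.33 and 0.27 (limma adjusted p = 0.193 and 0.282). Cdh1, the epithelial cadherin, lay at 1.76 to 14.4 units and Thy1 at 4.78 to 19.6 units. Neither passed the filter, so no strain was compared for them.

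Other probe sets gave a check on the choice of the brightest. A further 24 probe sets were tested for 14 of the 26 genes. In 23 of 42 pairs of gene and comparison, all of a gene's other probe sets had the same sign as the brightest. Counting a gene where any of its tested probe sets was called, 2 of 26 genes were called in MRL/MpJ against C57BL/6 (Id4 and Ccnd2) and 2 in AKR/N against C57BL/6 (Dazl and Ccnd2). There were 3 between MRL/MpJ and AKR/N (Dazl, Taf4b and Utf1) and 5 by the F test. By this count 15.4%, 15.1%, 10.7% and 22.6% of all genes were called, and of all tested probe sets 9.97% were called in AKR/N against C57BL/6, 6.91% between MRL/MpJ and AKR/N, and 15.1% by the F test.

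Among 22 other tested genes of spermatogonia, listed separately, 3 rose and 0 fell in MRL/MpJ against C57BL/6, 3 rose and 2 fell in AKR/N, and 1 was higher in MRL/MpJ than in AKR/N. The shares over all genes were 12.2%, 11.9% and 8.75%, and they also apply to the other lists. Kit, the receptor that marks differentiating spermatogonia, read 111 and 106 units in C57BL/6, 125.2 and 144.6 in AKR/N, and 167 and 173 in MRL/MpJ. All 3 strains stood apart, and MRL/MpJ exceeded C57BL/6 by 0.58 (limma adjusted p = 0.0107), as on its second probe set (0.67, adjusted p = 0.0251). The brightest lost its call without C57BL/6 mouse 2 (0.0538) or MRL/MpJ mouse 1 or 2 (0.0588 and 0.0771). Leydig cells contain Kit as well, and 4 of their 6 measured markers were higher in MRL/MpJ than in C57BL/6. In AKR/N 4 of the 6 were also higher, while Kit was not called there (0.28, limma adjusted p = 0.187). The part of Leydig cells in the Kit signal was not tested.

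Sdc4, a heparan sulfate proteoglycan found on stem cells and many other cells, read 34.4 and 36.4 units in C57BL/6 against 345 and 389.8 in AKR/N and 289 and 360.1 in MRL/MpJ. It rose by 2.90 and 2.72 (limma adjusted p = 3.32e-07 and 4.86e-07), while its second probe set was lower in both strains (-0.46 and -0.82, adjusted p = 0.262 and 0.049). The transcripts that the 2 probe sets read, and strain variants under their probes, could not be checked here. Averaged over both, Sdc4 rose by 1.22 and 0.95. Gfra1, the GDNF receptor of stem cells, was named after its values were seen. It read 49.3 and 46.1 units in AKR/N, 24.8 and 6.14 in C57BL/6, and 15.8 and 18.7 in MRL/MpJ. Its rise in AKR/N of 1.08 had adjusted p = 0.0412, was 0.59 as the mean of its 3 probe sets (0.174), and lost its call without any one array but C57BL/6 mouse 1. Without C57BL/6 mouse 2 it was 0.64. The count of 5 called genes in AKR/N was 1 to 2 with any one array left out, and the count of 3 in MRL/MpJ was 1 without C57BL/6 mouse 2 or MRL/MpJ mouse 1. The count of 1 between MRL/MpJ and AKR/N was 0 without any one mouse of these strains and 2 without either C57BL/6 mouse.

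Niche signals come mainly from Sertoli and other somatic cells. Of 19 tested genes of GDNF, KIT, FGF and related signals, some of which stand in the list above, 2 rose and 1 fell in AKR/N against C57BL/6, and 2 rose and 0 fell in MRL/MpJ. Between MRL/MpJ and AKR/N, 3 were higher and 0 lower in MRL/MpJ. Kitl, the KIT ligand of Sertoli cells, read 73.1 and 63.4 units in AKR/N, 179 and 226 in C57BL/6, and 215 and 219 in MRL/MpJ (-1.37 for AKR/N, limma adjusted p = 8.71e-05). MRL/MpJ exceeded AKR/N by 1.47 (adjusted p = 8.23e-05). As means of its probe sets the differences were -0.64 and 0.49, the second with adjusted p = 0.0715. The count of 3 in AKR/N was 1 without either AKR/N mouse. The count of 2 in MRL/MpJ was 1 without C57BL/6 mouse 2 or either MRL/MpJ mouse. The count of 3 between MRL/MpJ and AKR/N was 1 without AKR/N mouse 1 or either MRL/MpJ mouse. Gdnf itself lay below the filter and was not tested. Of the reproductive homeobox genes besides Rhox13, 2 were tested. Rhox5, of Sertoli cells, was higher in AKR/N than in MRL/MpJ, at 320.6 and 349 against 215 and 215 units (-0.60 for MRL/MpJ minus AKR/N, limma adjusted p = 0.00607, and 0.0733 without AKR/N mouse 2). AKR/N also exceeded C57BL/6, at 273 and 236 units (0.38, adjusted p = 0.043), a call lost without any one array but C57BL/6 mouse 1 (adjusted p = 0.0638 to 0.242).

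Over the whole series, arrays of a strain correlated at 0.979 to 0.985 across probe sets and those of different strains at 0.967 to 0.979. Markers of the testis were present, with 16 of 16 spermatocyte, 12 of 12 round spermatid, 11 of 11 elongating spermatid, 13 of 14 measured Sertoli and 6 of 6 measured Leydig genes above the filter. Of the 12 round spermatid markers, 6 were lower and 0 higher in MRL/MpJ than in C57BL/6, and 7 were lower and 0 higher than in AKR/N. Their summed signal was 16120 and 16650 units in MRL/MpJ and 18920 to 20630 in the other mice, and its part in the results above was not tested. The summed signal of 6 peritubular muscle markers stayed at 2632 to 2735 units, of 7 macrophage markers at 873.7 to 992.9 and of 6 endothelial markers at 215 to 259. Of 5 measured T cell genes, Cd3g and Cd4 lay below the filter. The summed signal of all 5 was 153 and 233.5 units in AKR/N and 50.1 to 76.25 in the other mice. Of the 3 tested, 1 was called higher and 0 lower in AKR/N than in C57BL/6, and their median difference was -0.44. Between the mice of a strain, the spermatogonial genes differed by a median of 0.16 in MRL/MpJ, 0.17 in C57BL/6 and 0.20 in AKR/N. Over all genes it was 0.13, 0.15 and 0.12.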

How the data were processed

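The authors deposited linear intensity values per probe set for 6 arrays, 2 per strain. Per the labels' protocols, Trizol total RNA was biotin-labelled after one-cycle cDNA synthesis. The values show that each array was scaled to a mean of 125.001 after trimming 2% at each end. The summary software was not given in the sources used here. Platform annotation, which can be old, named 34945 probe sets by 1 symbol, 932 by several and 9160 by none, and names came from the first kind only. The 64 control probe sets were left out.

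From these values, log2(intensity + 16) of 29692 probe sets was fitted to strain in R 4.3.3 by limma 3.58.1, with contrasts by strain and a trended eBayes prior (residual degrees of freedom 3, prior 7.58). The pseudocount understates changes of dim genes. The fit was tested on simulated data. Members and lists were chosen with earlier results of these data known. Members called by any test, those whose strains did not overlap, the brightest and those below the filter are given with values, the others by range. Of each further list, counts and up to 2 called genes of smallest adjusted p per comparison are given, with Gfra1 as an exception. Alternatives were normalization, filter, variance trend, pseudocount, arrays in the fit, probe sets, a replicate block and each array left out. Intensity depends on the probes, so levels of different genes were not compared.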

Additional observations from a re-analysis of the deposited data

How the results depend on the processing

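The counts of spermatogonial genes called were small and moved with the settings. In MRL/MpJ against C57BL/6 the count of 0 became 1 with the 60th percentile filter (Taf4b). In AKR/N against C57BL/6 the count of 0 became 1 with only the arrays compared (Utf1), 1 with the mean of a gene's probe sets (Dazl) and 1 with the replicate block (Utf1). Between MRL/MpJ and AKR/N the count of 2 became 1 after quantile normalization and 1 with only the arrays compared (Taf4b). It was 3 with the 60th percentile filter (Dazl, Taf4b and Utf1) and 0 with median centring, no filter, no variance trend or a pseudocount of 1. By the F test the count of 1 became 2 after quantile normalization, with a pseudocount of 64, with the mean of probe sets and with the replicate block. It was 3 with the 60th percentile filter and 0 with no filter, no variance trend or a pseudocount of 1. Counting any tested probe set, which was chosen after seeing the data, gave 2, 2, 3 and 5. With each array left out in turn, the counts ran from 0 to 1 in each of the 3 comparisons and in the F test. The cause of these moves was not tested.

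The called differences of Dazl and Utf1 kept their sign in these settings. Mbd4, in the methylation list, fell by brightest probe set in MRL/MpJ and AKR/N against C57BL/6, but as the mean of its probe sets differed by 0.0162 and 0.142. The replicate numbers do not mark a shared litter or day in the labels, and deviations of same-numbered mice correlated at 0.0425 to 0.0493 between strains, so the block was used only as an alternative. Over all probe sets, 2975, 2960 and 2052 were called in MRL/MpJ and AKR/N against C57BL/6 and in MRL/MpJ against AKR/N. Without the variance trend these were 1212, 1138 and 421, and the third was 1327 with no filter. With arrays left out they ran from 1483 to 2545, from 1290 to 2607 and from 694 to 2191. With median centring, 1820 of 3003 called in MRL/MpJ against C57BL/6 were higher, against 1504 of 2975. With no variance trend, each of the 6 further gene lists and the spermatocyte markers had fewer calls or 0 in every comparison where any was called. Intensities near the filter limit what can be seen for Lin28a, Neurog3, Bcl6b and Egr4. The median of all probe sets stayed within 0.06 of 0 in each setting.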
